A study of Homo sapiens with 18 samples.

Results

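The genes described here are 40 mitosis genes: the kinases, cyclins, kinesins, kinetochore proteins and checkpoint proteins that carry a cell through chromosome segregation. They are taken from a fixed list of gene names, and every one is listed in both deposited tables, so they make up 40 of 14768 genes in T47D and 40 of 14308 genes in MDA-MB-231. RNA was sequenced from 2 human breast cancer cell lines, T47D (estrogen receptor positive) and MDA-MB-231 (estrogen receptor negative), in which the lipid droplet protein G0S2 was overexpressed under doxycycline. Each line gave 3 control libraries at day 0, 3 libraries at day 3 and 3 libraries at day 15 of 0.5 ug/ml doxycycline, 18 libraries in all. These groups are those of the sample labels; the series description names other groups, parental cells and cells resistant to Aza, and the labels were followed. Every group mean below rests on n = 3 libraries. Whether the libraries of a group are separate cultures is not stated in the labels, and p-values cover only the spread between libraries, part of which may be technical. No cells given doxycycline without the introduced gene were analysed here, so G0S2, doxycycline and the vector cannot be told apart.

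Mitosis is driven by the kinase CDK1 bound to cyclins A and B. PLK1 and the Aurora kinases build the spindle, the NDC80 complex ties microtubules to the kinetochore, and the spindle checkpoint holds back the anaphase-promoting complex (APC/C) until chromosomes are attached. Most of these genes are transcribed in G2 and mitosis, and their summed RNA is widely used as a measure of how many cells in a culture are dividing. In bulk RNA, fewer cells of a kind and less RNA per cell cannot be told apart.

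The promoters of many of these genes share a pair of short motifs, and sequences from genes that come up below are shown because they hold both. TTTGAA and TTTAAA are the core letters of the cell cycle genes homology region, and CCAAT is the site of the factor NF-Y. A search of both strands of the 250 bases before each RefSeq start (GRCh38.p14) found TTTGAA or TTTAAA in 29 of 38 windows belonging to 34 of the 40 genes (76.3%), against 15.3% of 14235 windows of genes listed in both tables. CCAAT was found in 31 of the 38 (81.6%), against 33.6%, and both kinds of motif in 25 of the 38 (65.8%), against 5.73%. The stretches below carry the motifs in capitals on either strand, are written on the strand of the gene, and stop before the first exon base of GENCODE release 29. CDC20 is from chr1:43358831-43358954 on the plus strand, KIF11 from chr10:92592980-92593129 on the plus strand, ASPM from chr1:197146695-197146819 on the minus strand and CENPF from chr1:214603045-214603194 on the plus strand.
CDC20: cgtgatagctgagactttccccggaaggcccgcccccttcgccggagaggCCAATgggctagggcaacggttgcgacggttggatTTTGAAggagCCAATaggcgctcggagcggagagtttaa
KIF11: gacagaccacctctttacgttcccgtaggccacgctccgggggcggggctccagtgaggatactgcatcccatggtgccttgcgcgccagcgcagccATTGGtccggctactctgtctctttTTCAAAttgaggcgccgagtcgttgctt
ASPM: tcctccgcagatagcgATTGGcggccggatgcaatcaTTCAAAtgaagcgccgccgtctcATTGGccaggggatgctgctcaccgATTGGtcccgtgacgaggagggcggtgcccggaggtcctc
CENPF: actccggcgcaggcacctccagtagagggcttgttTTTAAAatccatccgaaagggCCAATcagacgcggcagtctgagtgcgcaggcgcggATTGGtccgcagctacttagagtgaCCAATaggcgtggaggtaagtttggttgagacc
TTCAAA and ATTGG are the letters of TTTGAA and CCAAT on the opposite strand. A match of letters is a description and does not show that a factor binds there.

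Depth ran between 40.1 and 51.0 M reads per library in T47D and between 37.0 and 52.4 M in MDA-MB-231, and the least covered of the 40 genes had 1142 reads in a library. G0S2 rose in every comparison with control, from few control reads in T47D, by log2 folds of 10.67 (day 3) and 10.61 (day 15) in T47D and 5.87 (day 3) and 5.57 (day 15) in MDA-MB-231. Of the identity genes of the lines, ESR1, PGR, FOXA1 and TFF1 are not listed in MDA-MB-231, and VIM, AXL, CAV1 and ZEB1 are not listed in T47D. Of 11 leukocyte markers, 3 are listed in T47D and 4 in MDA-MB-231, and of 9 endothelial markers, 0 in T47D and 2 in MDA-MB-231. Of 10 fibroblast markers, 2 are listed in T47D and 4 in MDA-MB-231, with summed levels of 24.7 to 27.3 CPM (reads scaled to library size) at day 15 against 34.5 to 40.1 CPM in control libraries of T47D, and 13.6 to 14.1 CPM against 15.6 to 16.7 CPM in MDA-MB-231. Replication-dependent histone RNA summed to 376 to 379 CPM at day 15 against 338 to 348 CPM in control libraries of T47D. The part of these differences in the results was not tested.

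One library stood apart for these genes by the count above the control mean. In T47D at day 15, 38 of the 40 genes in replicate 1 and 38 in replicate 3 were above the control mean, but 23 in replicate 2. The deviation of replicate 2 from its group mean ran with the GC content of the transcript (r = 0.70 over the 40 genes and 0.62 over 11527 genes), and that of replicate 3 ran the other way (r = -0.81 and -0.69). Control replicates 1 and 3 of T47D also deviated along GC content in opposite directions (r = -0.81 and 0.72 over the 40 genes). Those of MDA-MB-231 did so too (r = 0.64 and -0.70 over the 40 genes). These correlations are across genes that share libraries and are given as descriptions. Counts of the 40 genes for T47D at day 15 are therefore given with and without replicate 2. Replicate 2 was singled out on the values of these same genes, after the data were seen. A larger number of calls without it is a description and no support for a change.

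Levels are compared between genes as CPM per kilobase of transcript. Among T47D control libraries, NUSAP1 stood highest of the 40 with a mean of 222.7, then CCNB1 at 212, UBE2C at 207 and CDK1 at 203. The lowest were KIF14 at 13.8, MAD2L1 at 16.1 and CENPE at 17.6. Among MDA-MB-231 control libraries, TOP2A stood highest at 233, then TPX2 at 213, CCNB1 at 208 and UBE2C at 200.2, and HMMR lowest at 9.3. HMMR, which encodes a spindle protein also known as a hyaluronan receptor, had 76.7 CPM per kilobase in T47D control libraries. The tables were scaled separately, so levels in the 2 lines are set side by side without a test.

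**Figure D1:**
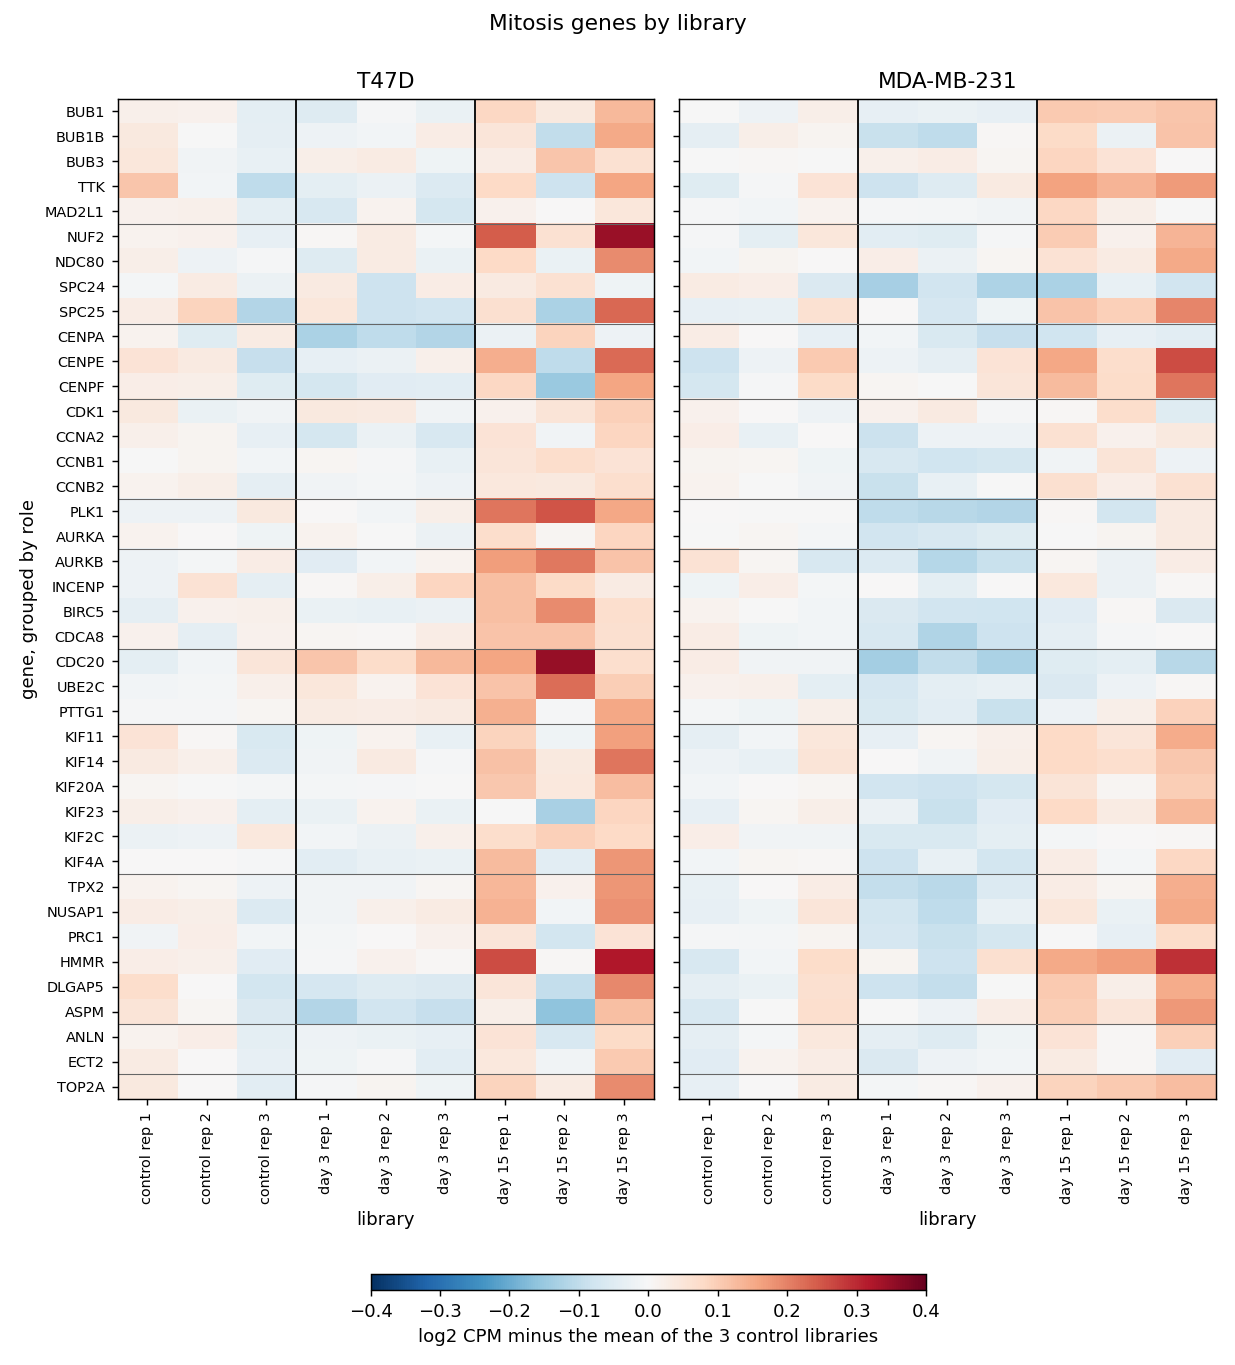
Each row is one of the 40 genes, grouped by role, and each column a library of T47D (left) or MDA-MB-231 (right); color is log2 CPM minus the mean of the 3 control libraries of that line, with red above and blue below it. Red dominates at day 15 in both lines, CDC20 and NUF2 in T47D and HMMR in MDA-MB-231 are among the deepest, T47D day 15 replicate 2 is paler or blue for many genes, and MDA-MB-231 is pale blue at day 3.

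In T47D, 6 of the 40 genes rose at day 15 against control and none was called at day 3. A gene was called at an adjusted p under 0.05 in limma, with Benjamini-Hochberg adjustment over all genes of the table, and all adjusted p below are of this kind. None fell at day 15, and the background was 5% of all T47D genes called higher. The 6 were NUF2, PLK1, CDC20, AURKB, UBE2C and BIRC5, which encode a kinetochore protein, 2 kinases, the APC/C activator, the APC/C ubiquitin-conjugating enzyme and survivin. The log2 folds of the 40 ran between -0.02 and 0.22 with a median of 0.08, against 0.00 over all genes. In 14 of the 40 all day 15 libraries lay above all control libraries, against 12.9% of all genes. Without day 15 replicate 2, a library singled out on the values of these genes, 26 of the 40 rose, against 11.3% of all genes. With the libraries adjusted for GC content, an alternative added after the data were seen, 19 rose, against 9.06%. The 26 hold all 6 genes called with the full set of libraries and come from every role but CDK1 and its cyclins. The count was 1 without control replicate 1 or 2, 2 without day 15 replicate 1 and 3 without control replicate 3. Without day 15 replicate 3, NUF2 was lost and the other calls of the 6 held. Shares of all genes are given, here and below, for the full fits, GC adjustment, the replicate block and the within-line fits without day 15 replicate 2. In other fits a change in the 40 genes cannot be told from a change over all genes.

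Between day 15 and day 3 of T47D, PLK1, AURKB and BIRC5 rose and 37 genes were not called, against a background of 2.23% called higher. The median log2 fold was 0.09. Without day 15 replicate 2, 26 rose, against 7.74% of all genes, and after GC adjustment 19 rose, against 5%. It was PLK1 alone without day 15 replicate 1 or day 3 replicates 1 or 2, and 2 genes without day 3 replicate 3. At day 3 against control, 0 of the 40 were called by limma, by limma with voom weights on the recovered reads or under any other alternative, against 1.88% of all genes. At an unadjusted p under 0.05 there was 1, CENPA, with a log2 fold of -0.11. The median log2 fold at day 3 was -0.01. The day 15 comparisons share the day 15 libraries, so they are not independent of each other.

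In MDA-MB-231, most folds were small, negative at day 3 and positive at day 15, and few were called. At day 3 against control, CDC20 and PLK1 fell and 38 were not called, against a background of 0.874% called lower. The median log2 fold was -0.04, 33 of the 40 folds were negative, and in 14 genes all day 3 libraries lay below all control libraries, against 10.1% of all genes. Against control, 8 of the 40 rose at day 15 and none fell, against a background of 3.42% called higher: the checkpoint kinases BUB1 and TTK, the kinetochore protein SPC25, the motors KIF11 and KIF14, the spindle proteins HMMR and ASPM, and TOP2A. The median log2 fold was 0.05, and 10 genes had all day 15 libraries above all control libraries, against 11.7% of all genes.

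The widest shift in MDA-MB-231 was between the later and the earlier time. At day 15 against day 3, 19 of the 40 rose and none fell, against a background of 2.47% called higher. The median log2 fold was 0.09 and 31 genes had all day 15 libraries above all day 3 libraries, against 12% of all genes. All 3 comparisons in this line rest on small folds and shift with single libraries: between 5 and 26 of the 40 were called for day 15 against day 3 with single libraries left out, with 5 without day 3 replicate 1, 5 without day 3 replicate 2, 8 without day 15 replicate 1 or 3, and 26 without day 15 replicate 2 (background 5.72%). For day 15 against control the counts were 2 without control replicate 2, 3 without control replicate 1 or day 15 replicate 3, 4 without day 15 replicate 1, 14 without control replicate 3, and, without day 15 replicate 2, 17 higher (background 5.98%) and 1 lower (7.28%). By the count of genes above the control mean, day 15 replicate 2 of MDA-MB-231 did not stand apart as that of T47D did. In it 28 of the 40 genes were above that mean, against 29 and 32 in replicates 1 and 3. By the median deviation of the 40 from the control mean it was lowest, as in T47D. That median was 0.02 against 0.05 and 0.09 in MDA-MB-231, and 0.01 against 0.08 and 0.12 in T47D. In MDA-MB-231 replicate 2, 11 genes were above the mean of the day 15 group, against 14 and 31. Leaving replicate 2 out gave the most calls of the fits without one library, so calls of that fit alone are not firm. For day 3 against control 0 were called if control replicate 1, day 3 replicate 1 or day 3 replicate 3 was left out, and 1 if another library was. With neither trend nor robust moderation of the variance, 0 of the 40 were called in all 3 comparisons of MDA-MB-231. The share of all genes called in that fit is not given.

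**Figure D2:**
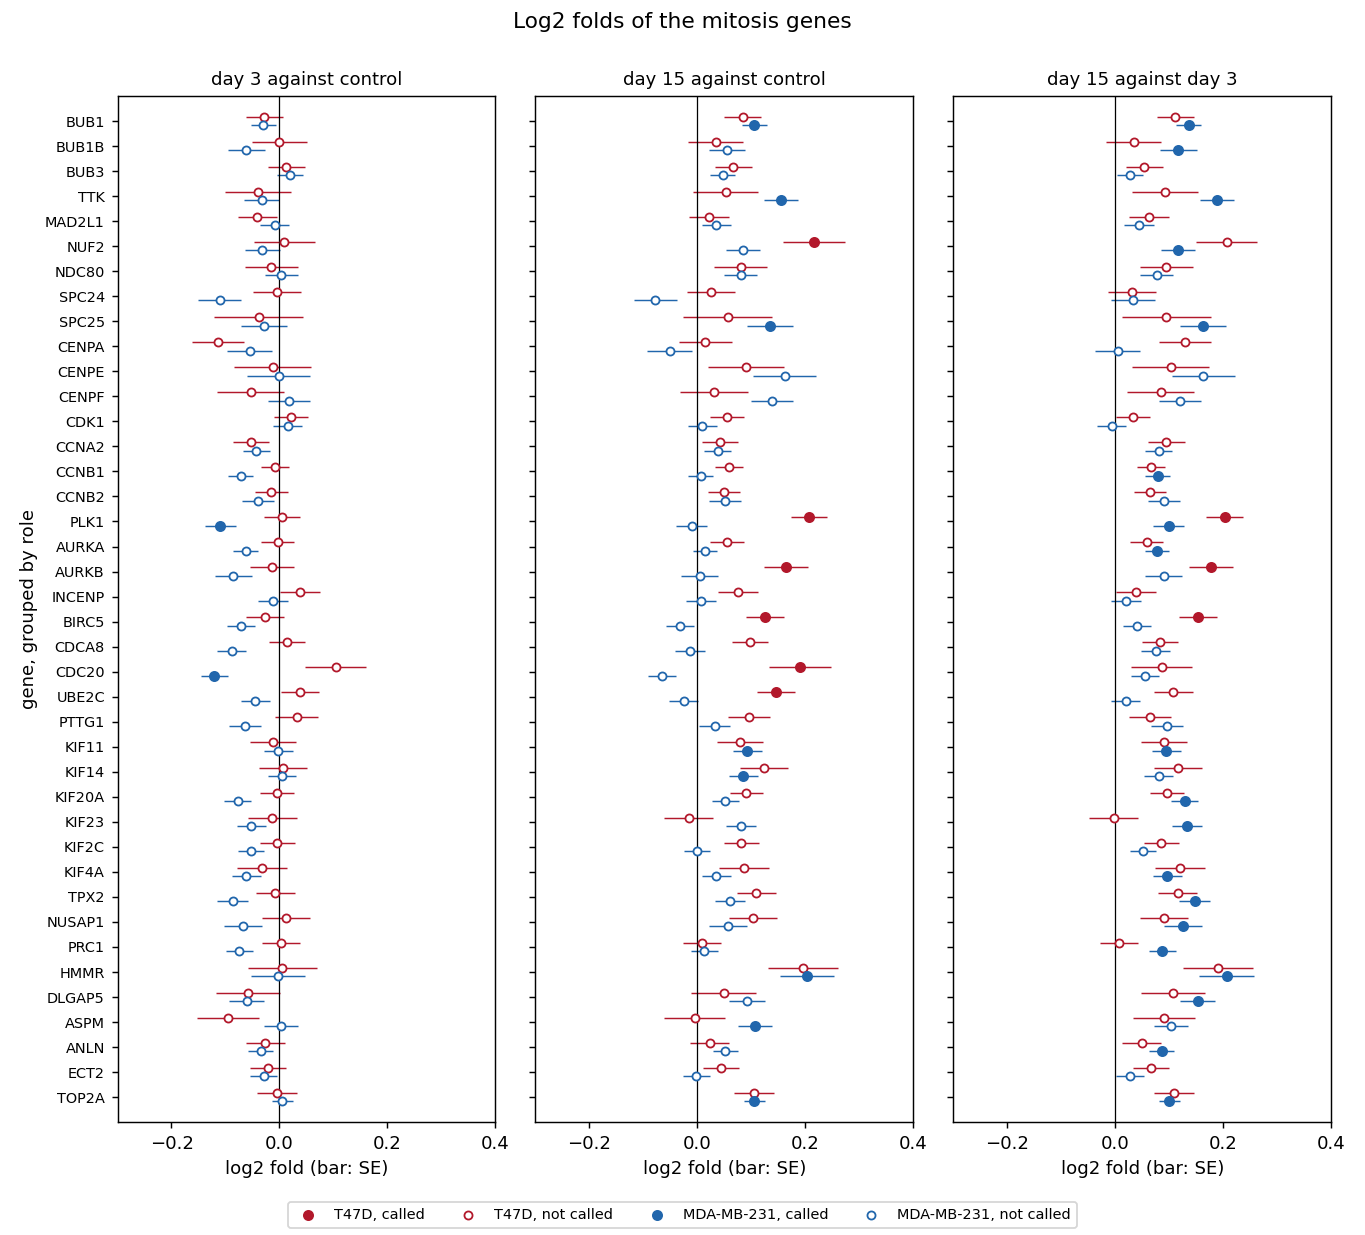
Log2 folds of the 40 genes in 3 comparisons (panels), T47D in red and MDA-MB-231 in blue, with bars of 1 SE; filled points were called at an adjusted p under 0.05. At day 15 against control the filled points of T47D (6) and MDA-MB-231 (8) are different genes with all libraries in the fit, and at day 15 against day 3 the 19 blue filled points and the 3 red ones share PLK1.

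No gene was called in both lines at day 15 against control. The 6 genes of T47D and the 8 of MDA-MB-231 share none, and at day 15 against day 3 PLK1 was the 1 gene called in both. Both statements change when T47D day 15 replicate 2 is left out: without it 26 genes were called in T47D in each comparison, among them 7 of the 8 of MDA-MB-231 at day 15 against control, all but ASPM, and 16 of its 19 at day 15 against day 3. That library was singled out on the values of these genes, so the larger overlap is a description. The number of shared genes also depends on how many are called. The fit without that library called most of the mitosis genes in T47D, so a large overlap would be likely whichever genes were called in MDA-MB-231. With 6 and 8 calls, few or no shared genes would be likely in the same way. Neither overlap was tested against the number of calls, so neither shows whether the lines agree. The test of the difference itself, T47D minus MDA-MB-231, is given below after the genes.

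CDK1 and its cyclins moved little. CDK1 itself, the central mitotic kinase, had 399, 381 and 384 CPM in control libraries, 399, 398 and 385 CPM at day 3 and 393, 403 and 414 CPM at day 15 of T47D. In MDA-MB-231 it had 253, 249.9 and 246 CPM in control libraries, 252, 256 and 249 CPM at day 3 and 250.3, 262 and 241 CPM at day 15. The groups overlap in both lines and the log2 folds of CDK1 ran between -0.01 and 0.05. CCNB1, the cyclin B that enters the nucleus with CDK1 at mitotic entry, had 454, 453 and 445 CPM in control libraries, 431, 426 and 429 CPM at day 3 and 447, 467 and 444 CPM at day 15 of MDA-MB-231. All day 3 libraries lie below the others, and CCNB1 rose at day 15 against day 3 by a log2 fold of 0.08 (SE 0.0229, adjusted p = 0.043), a call that held without day 15 replicate 3 and was lost without any other library (adjusted p up to 0.182). CCNA2 and CCNB2, cyclins of S phase to mitosis, were not called in any of the comparisons, with log2 folds at day 15 against day 3 of 0.09 and 0.06 in T47D and 0.08 and 0.09 in MDA-MB-231. With day 15 replicate 2 left out, CCNA2 was called in that comparison in T47D (0.12, adjusted p = 0.00334) and both cyclins were in MDA-MB-231 (adjusted p = 0.0247 and 0.0339). In MDA-MB-231 that is the fit without one library that has the most calls.

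PLK1 was the gene with the firmest call in T47D. It encodes the Polo kinase that drives centrosome maturation and mitotic entry (chromosome 16, 23677656 to 23690367 on the plus strand of GRCh38). It had 186, 186 and 194 CPM in control libraries, 189, 187 and 191 CPM at day 3 and 219, 224 and 209.7 CPM at day 15 of T47D. Every day 15 library exceeds every other library of the line. The log2 fold of day 15 was 0.21 (SE 0.0335, adjusted p = 0.00102) against control and 0.20 (SE 0.0335, adjusted p = 0.00195) against day 3. Both calls held under every alternative, with adjusted p up to 0.0158 and 0.0274, and in 6 of 6 fits without one library.

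In MDA-MB-231 PLK1 had 136, 136 and 136 CPM in control libraries, 127, 126 and 125 CPM at day 3 and 136, 129 and 139 CPM at day 15. The day 3 libraries lie below the others. PLK1 fell at day 3 against control by a log2 fold of -0.11 (adjusted p = 0.0461) and rose at day 15 against day 3 by 0.10 (adjusted p = 0.0422). The fall was lost in each of the 6 fits without one library (adjusted p up to 0.192) and after GC adjustment, and the rise in 5 of 6 (up to 0.189), without any of the 3 day 3 libraries or day 15 replicates 1 or 3. Exons of PLK1 overlap those of ERN2 and AC008870.3 on the opposite strand. The use of strand in counting is not given in the sources used here, so reads from the overlapping bases cannot be told apart. AURKA, the Aurora kinase of spindle poles, rose at day 15 against day 3 in MDA-MB-231 by a log2 fold of 0.08 (adjusted p = 0.0436; held without day 15 replicate 2 and lost without any other library, up to 0.193), with 317, 319 and 325 CPM at day 15 and 301, 303 and 307 CPM at day 3. Its T47D libraries lay between 246 and 266 CPM in all groups and it was not called there, except at day 15 without replicate 2 (0.08, adjusted p = 0.033, against control).

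Among the spindle checkpoint genes, BUB1 and TTK rose in MDA-MB-231 at day 15 against both control and day 3. TTK encodes the kinase MPS1, which starts the checkpoint at unattached kinetochores. It had 116, 119 and 124 CPM in control libraries, 113, 115 and 122 CPM at day 3 and 133, 131 and 134 CPM at day 15 of MDA-MB-231. Every day 15 library exceeds all the others. The log2 fold was 0.16 (SE 0.032, adjusted p = 0.00282) against control and 0.19 (adjusted p = 0.00102) against day 3, called in 6 of 6 fits without one library for both. In T47D the TTK groups overlap, with 102, 93.8 and 88.1 CPM in control libraries, 91.9, 93.0 and 91.1 CPM at day 3 and 99.99, 89.3 and 106 CPM at day 15.

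BUB1, the kinase that recruits the checkpoint to kinetochores, had 270.5, 267 and 275 CPM in control libraries, 265, 266 and 265 CPM at day 3 and 291, 291 and 293 CPM at day 15 of MDA-MB-231. The day 15 libraries lie within 2 CPM of each other and above all the others. Its log2 fold was 0.11 (adjusted p = 0.00412) against control and 0.14 (adjusted p = 0.000925) against day 3; the first was lost without control replicate 2 (adjusted p = 0.0523) and the second held in 6 of 6 fits. BUB1B, the checkpoint protein BUBR1, rose at day 15 against day 3 alone (0.12, adjusted p = 0.0437), lost without day 15 replicates 1 or 3 or day 3 replicates 1 or 2 (up to 0.228). BUB3 and MAD2L1, which complete the checkpoint complex, were not called in either line. In T47D none of the 5 checkpoint genes was called, with log2 folds of 0.02 to 0.08 at day 15 against control. Without day 15 replicate 2, 3 of the 5 were called there: BUB1 (0.11, adjusted p = 0.0168), BUB1B (0.10, adjusted p = 0.0255) and TTK (0.12, adjusted p = 0.0369).

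The NDC80 complex has 4 subunits, of which NUF2 rose in T47D and SPC25 in MDA-MB-231 at day 15 against control. NUF2 had 73.2, 73.4 and 70.9 CPM in control libraries, 72.6, 74.1 and 72.2 CPM at day 3 and 85.7, 75.6 and 92.2 CPM at day 15 of T47D. Replicate 2 is the lowest of the day 15 libraries, still above all the others. The log2 fold against control was 0.22 (SE 0.0567, adjusted p = 0.0253), and it was called in 1 of 6 fits without one library, the one without day 15 replicate 2; without any of the others the adjusted p reached 0.0988. Median centring and the fit without moderation of the variance also ended the call (adjusted p up to 0.099). Against day 3 the log2 fold of NUF2 was 0.21 (adjusted p = 0.0502). In MDA-MB-231 NUF2 had 114, 111 and 118 CPM in control libraries, 111, 110.3 and 114 CPM at day 3 and 122, 116 and 125 CPM at day 15, and it rose against day 3 by 0.12 (adjusted p = 0.0317), a call lost without day 15 replicates 1 or 3 or day 3 replicates 1 or 2 (up to 0.15). Exons of NUF2 overlap those of RGS5 on the opposite strand.

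SPC25 had 35.7, 35.8 and 38.1 CPM in control libraries, 36.6, 34.9 and 36.1 CPM at day 3 and 39.5, 39.0 and 41.9 CPM at day 15 of MDA-MB-231. The day 15 libraries lie above all the others. Its log2 fold was 0.13 (adjusted p = 0.0457) against control and 0.16 (adjusted p = 0.0229) against day 3, each called in 2 of 6 fits without one library; leaving out day 15 replicate 1 or 3, or replicate 1 or 2 of the other group, ended the calls (adjusted p up to 0.195 and 0.136). SPC24, its partner in the complex, had 40.2, 43.0 and 41.6 CPM at day 15 and 44.8, 44.7 and 42.1 CPM in control libraries of MDA-MB-231, a log2 fold of -0.08 that was not called. NDC80 was not called in either line, but without day 15 replicate 2 it was in both, against control, with adjusted p of 0.0105 in T47D and 0.0294 in MDA-MB-231. SPC25 was called in T47D without that library (0.15, adjusted p = 0.0422). None of the 3 centromere proteins was called: CENPE, a kinesin of the kinetochore, had a log2 fold at day 15 against control of 0.09 in T47D and 0.16 in MDA-MB-231, CENPF had 0.03 and 0.14, and CENPA, the histone H3 of centromeres, had 0.01 and -0.05. Without day 15 replicate 2 the folds of CENPE were 0.19 in T47D and 0.21 in MDA-MB-231 and those of CENPF 0.12 and 0.17, all called (adjusted p = 0.000308 and 0.0217 for CENPE, 0.000647 and 0.0023 for CENPF), and that of CENPA in T47D was -0.02, not called. In MDA-MB-231 that fit has the most calls of those without one library. The other such fits are not given for NDC80, CENPE and CENPF, so a rise of these genes in both lines is not shown.

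Of the chromosomal passenger complex, 2 of 4 members rose at day 15 against control in T47D, and of the APC/C partners and securin 2 of 3, while none was called in that comparison in MDA-MB-231. AURKB, the kinase of the passenger complex, had 46.4, 46.9 and 48.0 CPM in control libraries, 45.6, 46.8 and 47.6 CPM at day 3 and 52.9, 54.6 and 51.0 CPM at day 15 of T47D. All day 15 libraries lie above all the others. Its log2 fold was 0.16 (SE 0.0408, adjusted p = 0.0179) against control and 0.18 (adjusted p = 0.0192) against day 3, each called in 3 of 6 fits without one library; the first needed control replicates 1 and 2 and day 15 replicate 1 (up to 0.0771 without one of them), the second day 3 replicates 1 and 2 and day 15 replicate 1 (up to 0.113). The second was also lost with the replicate block (adjusted p = 0.0594). In MDA-MB-231 AURKB had 78.3, 75.6 and 72.0 CPM in control libraries, 72.5, 69.5 and 70.8 CPM at day 3 and 75.7, 74.0 and 76.8 CPM at day 15, with groups of control and day 15 that overlap.

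BIRC5 encodes survivin, which carries the passenger complex to centromeres (chromosome 17, 78214186 to 78225636 on the plus strand). It had 151, 156 and 156 CPM in control libraries, 152, 151 and 152 CPM at day 3 and 168, 176 and 162 CPM at day 15 of T47D. All 3 libraries of day 15 lie above the rest. The log2 fold was 0.13 (adjusted p = 0.0341) against control and 0.15 (adjusted p = 0.02) against day 3, each called in 2 of 6 fits without one library. Leaving out any control library or day 15 replicate 1 ended the first (adjusted p up to 0.142), and any day 3 library or day 15 replicate 1 the second (up to 0.0973). The replicate block and the fit without moderation of the variance also ended both, and median centring the first (adjusted p up to 0.0997 and 0.0862). In MDA-MB-231 BIRC5 had 166, 164 and 163 CPM in control libraries, 158, 156 and 155 CPM at day 3 and 159, 165 and 158 CPM at day 15. INCENP and CDCA8, the scaffold subunits, were not called in either line, with log2 folds at day 15 against control of 0.08 and 0.10 in T47D and 0.01 and -0.01 in MDA-MB-231.

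CDC20 is the activator of the APC/C that the checkpoint restrains (chromosome 1, 43358955 to 43363203 on the plus strand), and its promoter is the first of those shown above. It had 125, 127 and 133 CPM in control libraries, 138, 135 and 140.2 CPM at day 3 and 143, 163 and 134 CPM at day 15 of T47D. The day 15 libraries lie above the control libraries but overlap with day 3, and replicate 2 stands highest. The log2 fold at day 15 against control was 0.19 (SE 0.0568, adjusted p = 0.0487), called in 2 of 6 fits without one library and lost without any control library or day 15 replicate 1 (up to 0.17). The call was also lost with the replicate block, with voom and without moderation of the variance (adjusted p up to 0.146). Without day 15 replicate 2 the fold was 0.11 (adjusted p = 0.0162) against control and 0.01 (adjusted p = 0.912) against day 3. At day 3 against control it was 0.10 (adjusted p = 0.601).

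In MDA-MB-231 CDC20 went the other way, with 259, 251 and 251 CPM in control libraries, 231, 237 and 232 CPM at day 3 and 245, 247 and 235 CPM at day 15. All induced libraries lie below all control libraries. It fell at day 3 by a log2 fold of -0.12 (SE 0.0254, adjusted p = 0.00801), a call that needed control replicate 1, day 3 replicate 1 and day 3 replicate 3 (adjusted p up to 0.0787 without one of them), and at day 15 its log2 fold of -0.07 was not called (adjusted p = 0.107). Without day 15 replicate 2, CDC20 was called lower at day 15 against control (-0.08, adjusted p = 0.0477 in limma). The genome holds 1 pseudogene named after CDC20, which the authors' counting could have given some of its reads.

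UBE2C encodes the ubiquitin-conjugating enzyme of the APC/C (chromosome 20, 45812576 to 45816957 on the plus strand). It had 174, 174 and 178 CPM in control libraries, 181, 177 and 182 CPM at day 3 and 190.2, 205 and 188 CPM at day 15 of T47D. Each library of day 15 lies above the rest, with replicate 2 highest. The log2 fold against control was 0.15 (SE 0.0358, adjusted p = 0.0168). The call of UBE2C was lost without control replicates 1 or 2 (up to 0.0787) and without moderation of the variance (0.0724). In MDA-MB-231 it had 172, 172 and 166 CPM in control libraries, 162, 166 and 167 CPM at day 3 and 164, 168 and 171 CPM at day 15, with groups that overlap. UBE2C has 4 pseudogenes named after it, so its counts are uncertain in the same way. PTTG1, the securin that the APC/C destroys at anaphase, was not called, with log2 folds at day 15 against control of 0.10 in T47D and 0.03 in MDA-MB-231; without day 15 replicate 2 it was called in T47D (0.15, adjusted p = 0.000338).

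**Figure D3:**
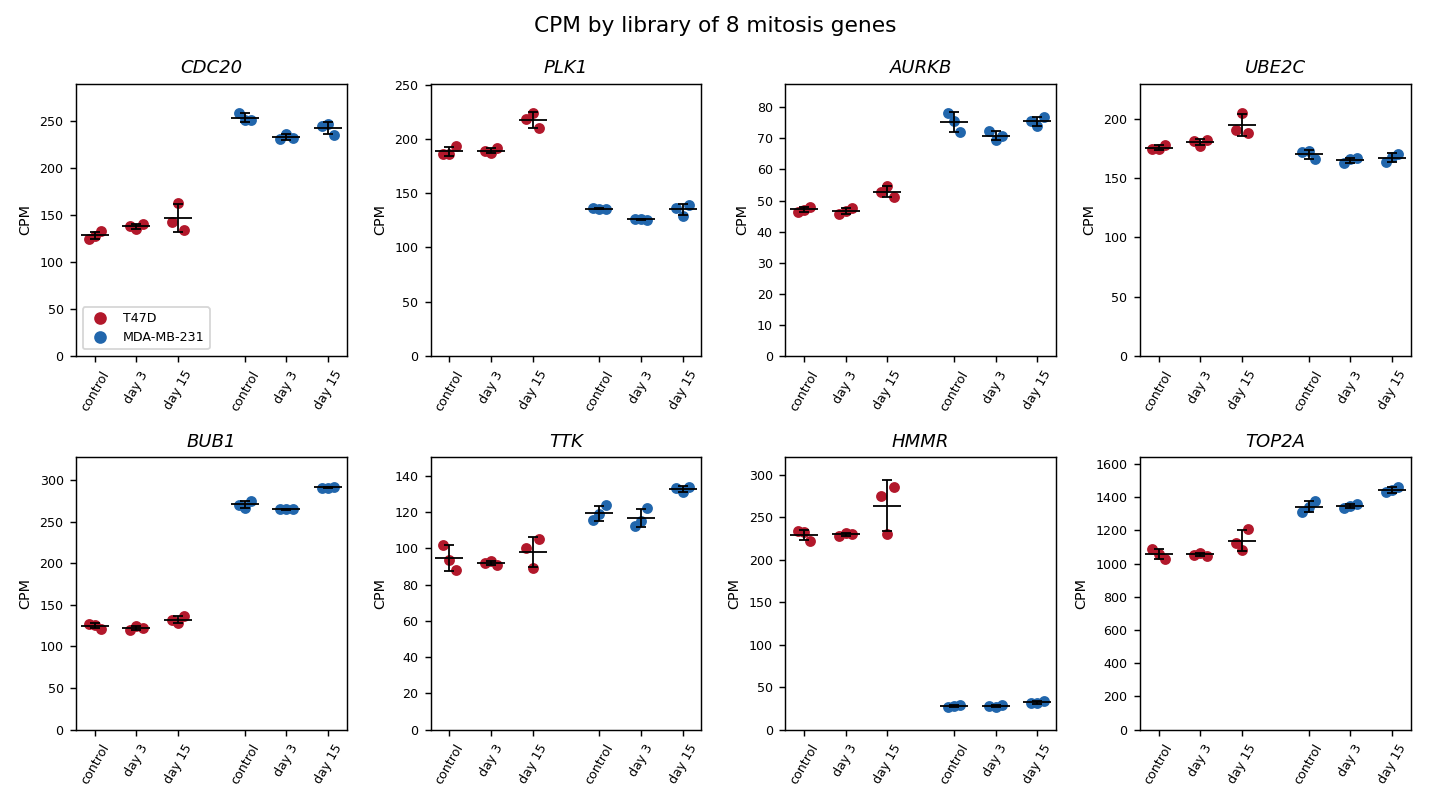
CPM of 8 genes in each library of T47D (red, left) and MDA-MB-231 (blue, right) by group, with the mean and SD of 3 libraries in black. CDC20, PLK1, AURKB and UBE2C (top) are highest at day 15 in T47D, where CDC20 averaged 146.9 CPM against 128.3 CPM in control libraries, and BUB1, TTK and TOP2A (bottom) have day 15 libraries above all others of MDA-MB-231.

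Of the 6 kinesins, 2 rose at day 15 against control in MDA-MB-231 and none in T47D, where 4 did without day 15 replicate 2: KIF11 (0.13, adjusted p = 0.00184), KIF14 (0.17, adjusted p = 0.00102), KIF20A (0.12, adjusted p = 0.00336) and KIF4A (0.15, adjusted p = 0.00064). KIF11, the motor that pushes spindle poles apart, had 288, 293 and 305 CPM in control libraries, 289, 297 and 299 CPM at day 3 and 312, 305 and 327 CPM at day 15 of MDA-MB-231. The day 15 libraries lie above all the others, replicate 2 by less than 1 CPM. The log2 fold was 0.09 (adjusted p = 0.0324) against control and 0.09 (adjusted p = 0.0395) against day 3, and the second held without day 15 replicate 2 and was lost without any other library (up to 0.217). KIF14, a motor of cytokinesis, had 181, 179.5 and 190.2 CPM in control libraries and 194, 192 and 198 CPM at day 15, and its log2 fold of 0.09 against control was called (adjusted p = 0.0463). The call of KIF11 and that of KIF14 against control needed control replicates 1 and 2 and day 15 replicates 1 and 3 (adjusted p up to 0.185 and 0.24 without one of them).

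KIF20A and KIF23, the motors of the central spindle, rose at day 15 against day 3 in MDA-MB-231 by log2 folds of 0.13 (adjusted p = 0.00368) and 0.13 (adjusted p = 0.00534). KIF20A had 253, 245 and 261 CPM at day 15 and 231, 230.0 and 232 CPM at day 3, with groups well apart, and its call held in 6 of 6 fits without one library. KIF23 had 245, 238 and 254 CPM at day 15 and 229, 218 and 225 CPM at day 3, lost without day 3 replicate 2 (adjusted p = 0.0705). Exons of KIF20A overlap those of CDC23 and BRD8 on the opposite strand. The chromosome motor KIF4A rose by 0.10 (adjusted p = 0.0341; held without day 15 replicate 2 and lost without any other library, up to 0.178), and KIF2C, which takes microtubules apart at centromeres, was not called. In T47D the log2 folds of the kinesins at day 15 against control ran between -0.02 and 0.12, and between 0.04 and 0.17 without replicate 2.

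Spindle assembly genes made up 5 of the 19 that rose at day 15 against day 3 in MDA-MB-231: TPX2, NUSAP1, PRC1, HMMR and DLGAP5. TPX2, which activates AURKA on the spindle, had 759, 749 and 823 CPM at day 15 and 696, 690.2 and 717 CPM at day 3, a log2 fold of 0.15 (SE 0.0285, adjusted p = 0.00539) called in 6 of 6 fits without one library. Its control libraries, at 729, 745 and 761 CPM, lie above those of day 3 and overlap with those of day 15. DLGAP5, which stabilizes kinetochore fibers, had 341, 323 and 352 CPM at day 15 and 299.8, 297 and 317 CPM at day 3, a log2 fold of 0.15 (adjusted p = 0.0116; lost without day 15 replicate 1 or day 3 replicates 1 or 2, up to 0.0822). The microtubule bundlers NUSAP1 (0.12, adjusted p = 0.0455) and PRC1 (0.09, adjusted p = 0.0406) were called in 2 and 1 of 6 fits without one library; NUSAP1 needed day 15 replicates 1 and 3 and day 3 replicates 1 and 2 (up to 0.189 without one), and PRC1 needed every library but day 15 replicate 2 (up to 0.214). In T47D at day 15 against control none of the 6 spindle assembly genes was called, and without replicate 2 TPX2, NUSAP1, HMMR and DLGAP5 were.

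HMMR had the largest log2 fold of the 40 at day 15 against control in MDA-MB-231. It had 26.6, 27.6 and 29.2 CPM in control libraries, 28, 26.2 and 29.1 CPM at day 3 and 30.9, 31.2 and 34 CPM at day 15. The day 15 libraries lie above all the others. The log2 fold was 0.20 (SE 0.0506, adjusted p = 0.0123) against control, gone if control replicate 1 or 2 or day 15 replicate 3 is left out (up to 0.0919), and 0.21 (adjusted p = 0.0175) against day 3, gone if day 3 replicate 1 or 2 or day 15 replicate 3 is left out (up to 0.136). In T47D HMMR had 233, 232 and 222 CPM in control libraries, 228, 232 and 229.7 CPM at day 3 and 275, 229.8 and 286 CPM at day 15. Replicate 2 lies within the control range there, and the log2 fold of 0.20 (SE 0.0645) was not called (adjusted p = 0.0794). Without that library the fold was 0.29 and was called. The library was singled out on the values of these same genes, HMMR among them, so that call is a description and no support for a change. HMMR shares exon sequence with the antisense gene HMMR-AS1.

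ASPM, a spindle pole protein, had 400.4, 386 and 422 CPM at day 15 and 357, 374 and 391 CPM in control libraries of MDA-MB-231, groups that overlap, with a log2 fold of 0.11 (adjusted p = 0.0417; gone if control replicate 1 or 2 or day 15 replicate 1 or 3 is left out, up to 0.223). In T47D it was not called, except at day 15 against day 3 without day 15 replicate 2 (0.17, adjusted p = 0.000204). TOP2A, the topoisomerase that untangles sister chromatids (chromosome 17, 40388516 to 40417950 on the minus strand), had 1312, 1343 and 1374 CPM in control libraries, 1337, 1347 and 1360.2 CPM at day 3 and 1428, 1443 and 1464 CPM at day 15 of MDA-MB-231. Its day 15 libraries lie above all the others. The log2 fold was 0.11 (SE 0.0197, adjusted p = 0.00104) against control, called in 6 of 6 fits without one library, and 0.10 (adjusted p = 0.0038) against day 3, lost without day 3 replicate 1 (0.0557). In T47D TOP2A had 1087, 1059 and 1027 CPM in control libraries, 1053, 1065 and 1045 CPM at day 3 and 1126, 1083 and 1206 CPM at day 15, groups of control and day 15 that overlap; without replicate 2 it was called against control (0.14, adjusted p = 0.000106). Of the cytokinesis genes, ANLN, a scaffold of the contractile ring, rose at day 15 against day 3 in MDA-MB-231 by 0.09 (adjusted p = 0.0295; lost if day 15 replicate 1 or 3 or day 3 replicate 1 or 2 is left out, up to 0.164), and ECT2, which activates RhoA there, was not called in either line. Both were called in T47D against control without day 15 replicate 2 (0.07 each, adjusted p = 0.0494 and 0.0337).

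The day 15 response differed between the lines for 4 of the 40 genes. In a fit over all 18 libraries and 12666 genes listed in both tables, the log2 fold of day 15 against control was higher in T47D than in MDA-MB-231 for CDC20 by 0.26 (SE 0.0658, adjusted p = 0.0164), PLK1 by 0.22 (SE 0.0426, adjusted p = 0.00185), UBE2C by 0.17 (SE 0.0432, adjusted p = 0.0141) and BIRC5 by 0.16 (SE 0.0407, adjusted p = 0.0159), against a background of 4.07% of genes called higher. PLK1 averaged 217.5 ± 7.28 CPM at day 15 and 188 ± 4.52 CPM in control libraries of T47D, and 135 ± 5.28 CPM and 136 ± 0.111 CPM in MDA-MB-231 (SD, n = 3 each). CDC20 averaged 147 ± 14.8 CPM at day 15 and 128 ± 3.99 CPM in control libraries of T47D, and 242 ± 6.49 CPM and 254 ± 4.57 CPM in MDA-MB-231. The next was AURKB, at 0.16 (SE 0.051, adjusted p = 0.0519). Voom was not run for the line difference. PLK1, CDC20 and UBE2C stayed called in every other alternative and every fit without one library, and BIRC5 in all but the one without T47D control replicate 1 (adjusted p = 0.0509). The difference of CDC20 was 0.18 (adjusted p = 0.00574) without T47D day 15 replicate 2. Without T47D day 15 replicate 3, 7 genes were called, 6 higher and 1 lower, with no share of all genes given for that fit.

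No gene was called in the other 2 line differences by limma, against 2.46% of all genes for day 3 against control and 4.14% for day 15 against day 3: 3 were at an unadjusted p under 0.05 for day 3 against control (CDC20 0.22, PLK1 0.11, CDCA8 0.10) and 4 for day 15 against day 3. After GC adjustment CDC20 was called in the first (0.20, background 1.82%) and BIRC5 in the second (0.13, background 3.21%). Without T47D day 15 replicate 2, 1 gene was called in the second, and without replicate 3, 2 were. For the genes that rose in MDA-MB-231, none of the 8 differed between lines at day 15; HMMR, for one, had log2 folds of 0.20 in T47D and 0.20 in MDA-MB-231 and a difference of -0.01 (SE 0.0872). A call in one line and not in the other therefore does not show a difference for these 8.

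GC content of the transcript ran with the folds. The 40 genes have a median GC content of 43.0% (35.3% to 60.1%), against 48.8% over T47D genes and 48.5% over MDA-MB-231 genes. The 6 genes called at day 15 in T47D have a median of 54.4% (38.8% to 57.9%), with NUF2 the lowest, and the 8 called in MDA-MB-231 a median of 38.3% (36.1% to 42.9%). Across the 40 genes, the log2 fold of day 15 against control had r = 0.32 with GC content in T47D and r = -0.73 in MDA-MB-231, and the line difference had r = 0.75; over all genes with a GC value these were 0.06, -0.29 and 0.23. At day 3 against control r was 0.41 over the 40 genes in T47D and -0.70 in MDA-MB-231. Genes are not replicates and share the same libraries, so these values carry no test.

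**Figure D4:**
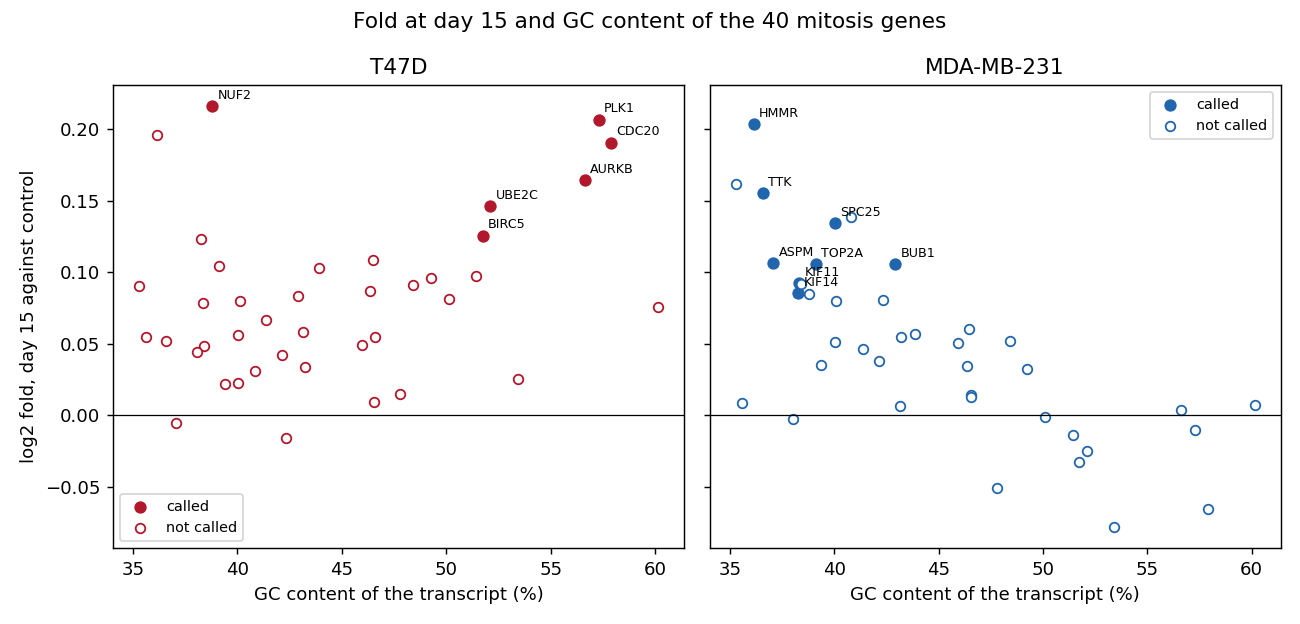
Log2 fold of day 15 against control of the 40 genes by GC content of the transcript (%), T47D left and MDA-MB-231 right; filled points were called. In T47D 5 of the 6 called genes lie above 50% GC content and NUF2 lies at 38.8%, and in MDA-MB-231 all 8 called genes lie below 43% and the folds slope downward.

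The adjustment for GC content also takes out any difference between groups that runs along it. It left all 6 T47D calls at day 15 against control and all 4 calls of the line difference, which grew to 8 with NUF2, CDCA8, KIF14 and ECT2, against 5.8% of all genes called higher. In MDA-MB-231 it left BUB1, TTK and TOP2A of the 8 at day 15 against control, with log2 folds of 0.07, 0.10 and 0.06, against 2.08% of all genes. Of the 19 at day 15 against day 3 it left 11 and called 13 in all, against 2.59%. At day 3 it kept CDC20, called TPX2 and PRC1 lower as well and lost PLK1, against 1.34%. What moved GC content with the groups was not tested.

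Other genes of the mitotic machinery, taken from lists chosen by name, were counted in the same way. At day 15 against day 3 in MDA-MB-231, where the 40 genes had 19 calls, 6 of 34 other kinetochore and centromere genes rose, 5 of 31 other spindle, kinesin and cytokinesis genes, 3 of 22 other mitotic kinases and regulators, 3 of 18 condensin and cohesin genes, 7 of 36 S phase genes and 0 of 14 APC/C subunits, and none of these fell, beside 2.47% of all genes called higher. In T47D at day 15 against control, 3 of 34 kinetochore genes rose and 1 fell, 2 of 31 spindle genes rose, 3 of 22 kinases and regulators rose, 1 of 18 condensin and cohesin genes rose, 2 of 36 S phase genes rose and 1 fell, and 0 of 14 APC/C subunits were called. The background there was 5% of all genes called higher and 6.23% called lower, 11.2% in any direction. The kinetochore, spindle, condensin and cohesin, and S phase counts of T47D lie near it. The median log2 folds of these lists lay between 0.03 and 0.07 in the first case and between -0.04 and 0.06 in the second.

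CENPT, a kinetochore protein that recruits the NDC80 complex, rose in every comparison with control. It had 40.9, 41.8 and 46.6 CPM in control libraries, 52.5, 54.4 and 55.4 CPM at day 3 and 56.2, 59.0 and 54.1 CPM at day 15 of T47D. In MDA-MB-231 it had 22.4, 21.7 and 21.7 CPM in control libraries, 27.5, 28.2 and 26.5 CPM at day 3 and 27.6, 27.3 and 26.3 CPM at day 15. All induced libraries exceed all control libraries in both lines, with log2 folds of 0.33 and 0.39 at day 3 and day 15 in T47D, and 0.32 and 0.30 in the other line, all larger than any fold of the 40 genes. Its exons overlap those of NUTF2, THAP11 and TSNAXIP1 on the opposite strand, so its reads from the overlapping bases cannot be told from theirs.

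Regulators of these genes were checked by name. FOXM1, a transcription factor of G2 and mitotic genes, fell at day 3 in MDA-MB-231 by a log2 fold of -0.11 (adjusted p = 0.00766) and rose at day 15 against day 3 by 0.09 (adjusted p = 0.0222), with 338, 337 and 332 CPM in control libraries, 310, 311 and 314 CPM at day 3 and 333, 327 and 333 CPM at day 15. CDKN1A, the inhibitor p21 of cyclin-dependent kinases, ran the other way, with 41.5, 39.7 and 35.8 CPM in control libraries, 47.3, 45.7 and 43.4 CPM at day 3 and 39.9, 39.8 and 38.8 CPM at day 15; it rose at day 3 by 0.22 (adjusted p = 0.00762) and fell at day 15 against day 3 by a log2 fold of -0.20 (adjusted p = 0.012). MYBL2, which works with FOXM1, fell at day 15 against control in MDA-MB-231 (-0.17, adjusted p = 0.00516). In T47D none of these 3 was called. MKI67, the proliferation marker Ki-67, was not called in any comparison of either line. Its log2 folds at day 15 against control were 0.02 in T47D and 0.07 in MDA-MB-231. In T47D it had 633, 645 and 630 CPM in control libraries and 677, 566 and 702 CPM at day 15. Replicate 2 thus lay below all control libraries and replicates 1 and 3 above them. In MDA-MB-231 all day 15 libraries of MKI67 lay above all day 3 libraries, with a log2 fold of 0.13 (adjusted p = 0.209 in limma).

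Among the 40 genes, 15 have exons that overlap those of another gene and 7 have a pseudogene named after them, so their counts are uncertain to that extent.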

How the data were processed

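Each cell line has a deposited table of log2 CPM by gene and library. Per the submitters' processing notes, the authors used STAR, featureCounts and limma with GRCh38.p13, in versions not listed there. Each table was scaled on its own. Every deposited log2 value is a whole number of reads within 0.1 after removal of a pseudocount of 3 reads, which gave depth, CPM and voom input. Strand use in counting and any filter of genes: not given in the sources used here.

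limma 3.58.1 (R 4.3.3, statmod 1.5.0) with trend and robust moderation was fitted to the 9 libraries of each line with group means and no other term, and, for line differences, to all 18 libraries and 12666 shared genes; it was tested on simulated data. The members and lists were chosen with earlier results of these data known. Named besides the 40 genes are FOXM1, MYBL2, MKI67, CDKN1A, G0S2 and, by rule, up to 3 called genes with the largest folds of the other lists per comparison, of which the text gives some. Libraries of a group differed by more than sampling noise. Alternatives were the replicate block, each library left out, a pseudocount of 0.5 read, a minimum mean log2 CPM of 1, no trend or robust moderation, median centring, voom on recovered reads, and, added after the data were seen, GC adjustment (a spline with 5 degrees of freedom per library). GC content, lengths and coordinates come from GENCODE release 29 and promoters from RefSeq; 34 of 40 genes matched.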

Additional observations from a re-analysis of the deposited data

Results flagged for a closer look

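The log2 fold of day 15 against control differed between the lines by the interaction test for 4 genes, each higher in T47D than in MDA-MB-231: CDC20 (difference 0.26), PLK1 (0.22), UBE2C (0.17) and BIRC5 (0.16). In T47D these genes had every day 15 library above every control library, with log2 folds of 0.19, 0.21, 0.15 and 0.13 in that order, and in MDA-MB-231 their log2 folds were -0.07, -0.01, -0.02 and -0.03. The 4 genes have transcripts of 51.8% to 57.9% GC content, and their differences after GC adjustment were 0.20, 0.16, 0.17 and 0.16.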

How the results depend on the processing

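No called fold of the 40 genes changed sign under any alternative; of 4714 values of uncalled folds under the alternatives, 314 had the other sign, none of them called, as for CDK1 (-0.02) and CCNB1 (-0.02) at day 15 against control in MDA-MB-231 without day 15 replicate 2. With a pseudocount of 0.5 read, counts were those given above, and with a minimum mean log2 CPM of 1 they were within 1 of them. GC adjustment called 3 (day 15 against control) in MDA-MB-231, 19 and 19 (day 15 against control and against day 3) in T47D, and, of the line differences, 1 for day 3, 8 for day 15 against control and 1 for day 15 against day 3. Without trend and robust moderation the calls were 0, 0 and 0 in the 3 MDA-MB-231 comparisons and 2 for day 15 against control in T47D. Median centring called 1 at day 3 in MDA-MB-231, and voom 5 at day 15 against control. Shares of all genes in the fits without moderation, with median centring and with voom are not given. With one library left out, counts ran between 0 and 1, 2 and 18, and 5 and 26 for the comparisons in MDA-MB-231, 1 and 26 for both at day 15 in T47D, and between 3 and 7 and 0 and 2 in the line differences of day 15 against control and against day 3. The deviations of same-numbered libraries had r of -0.41 to 0.07 in T47D (3 of 9 positive) and -0.03 to 0.28 in MDA-MB-231 (8 of 9 positive, mean 0.11, against -0.05 for different numbers); not every r exceeded 0.1 in either line and not every library went best with its own number, so the numbers are not treated as pairs. With the replicate block, 7, 17 and 28 of the 40 were called in MDA-MB-231, against 4.45%, 15.9% and 12.5% of all genes, and 0, 4 and 1 in T47D, against 1.45%, 8.14% and 3.46%. The cause of these changes was not tested.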
